A study of Mus musculus with 2 samples.

Results

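The genes of fatty acid uptake, oxidation and storage were followed as a set of 40 genes among the 27179 genes of the series. They were chosen by name, as the rows of the deposited files whose symbol is on a list of fatty acid receptors, transporters and enzymes, and all 40 were found. The cells were wild-type progenitors of group 2 innate lymphoid cells (ILC2), lymphocytes without antigen receptors that make type 2 cytokines. Flow cytometry isolated them from the marrow of C57BL/6 mice 8 weeks old, in 2 libraries of 1 group, with 8 mice pooled for each library. No treatment is named, and neither the sort antibodies nor the sex of the animals could be stated here. Pool 1 and pool 2 are numbered by accession. Each file's column heading carries the code of the other library, so if the headings are right the 2 names change places throughout.

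Cells take up fatty acids through membrane transporters, bind them to cytosolic carriers and activate them to acyl-CoA. Long chains then enter the mitochondrion through the carnitine shuttle and are shortened by the enzymes of beta-oxidation, which feed electrons and acetyl-CoA to respiration. The reverse road builds fatty acids from cytosolic acetyl-CoA, and surplus is stored as triglyceride in lipid droplets and released by lipases. PPAR nuclear receptors bind fatty acids and drive many of these genes, and PPAR gamma is known for its part in ILC2 function in mouse tissues.

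Values are RPKM, reads per kilobase of gene scaled to the depth of the library, so levels can be set side by side between genes. The libraries held 20216146 reads in pool 1 and 19834586 in pool 2, as recovered from the steps between the deposited values. Detection means at least 1 RPKM in each of the pools, and ± gives the SD over the pools (n = 2). With 1 group there is no comparison of conditions. The pools are set against each other as libraries, with no replicate check and no p-value. The 10 listed ILC2 markers were all detected, among them Rora with 56.0 RPKM in pool 1 and 51.3 in pool 2 and Thy1 with 558 and 510.5. Of the 10, 4 were higher in pool 1 and 6 in pool 2, where Il1rl1 had 173 and 262 RPKM in pools 1 and 2. Their summed RPKM was 2357 in pool 1 and 2567 in pool 2. RNA of other marrow cells was also present and differed between the pools. The summed RPKM of 8 neutrophil markers was 1004 in pool 1 and 2348 in pool 2, and of 6 erythroid markers 451 and 1317. It was 40.7 and 593 for 6 eosinophil markers, of which Prg2 had 27.2 and 471. For 6 bone stroma markers it was 68.2 and 2.82, with 0 of the 6 detected in both pools. Of these, Col1a1 had 40.5 and 0.889 RPKM, while Pdgfrb was higher in pool 2 at 0.174 and 0.820. Adipocyte markers were nearly absent, with 5 of 6 listed at 0 in both pools and Adipoq at 0.281 and 0.368 RPKM. In such sorted bulk RNA, fewer cells of a type and less RNA per cell cannot be told apart.

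Of the 40 genes, 34 were detected, where 40.5% of all genes were. A mean of 10 RPKM or more was reached by 25 of the 40 (24.7% of all genes) and a mean of 50 RPKM or more by 10 (6.71%). The median level of the 40 was 4.64 (log2(RPKM + 0.1), SD of the pool medians 0.012), against -1.82 over all genes. Among detected genes the median level was 4.86 for the 34 members and 3.86 for all 11013. Of the 34, 23 lay above the median of all detected genes and 15 in their upper quartile. Beta-oxidation held the highest median level of the 8 roles at 5.84, and uptake and binding the lowest at 1.04. The members nearest the threshold were Fabp4, Acaca and Cd36 above it, at 1.23, 1.74 and 1.93 RPKM in their lower pool, and Scd1, Fabp5 and Acacb below it, at 0.685, 0.372 and, far below it, 0.0700.

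**Figure D1:**
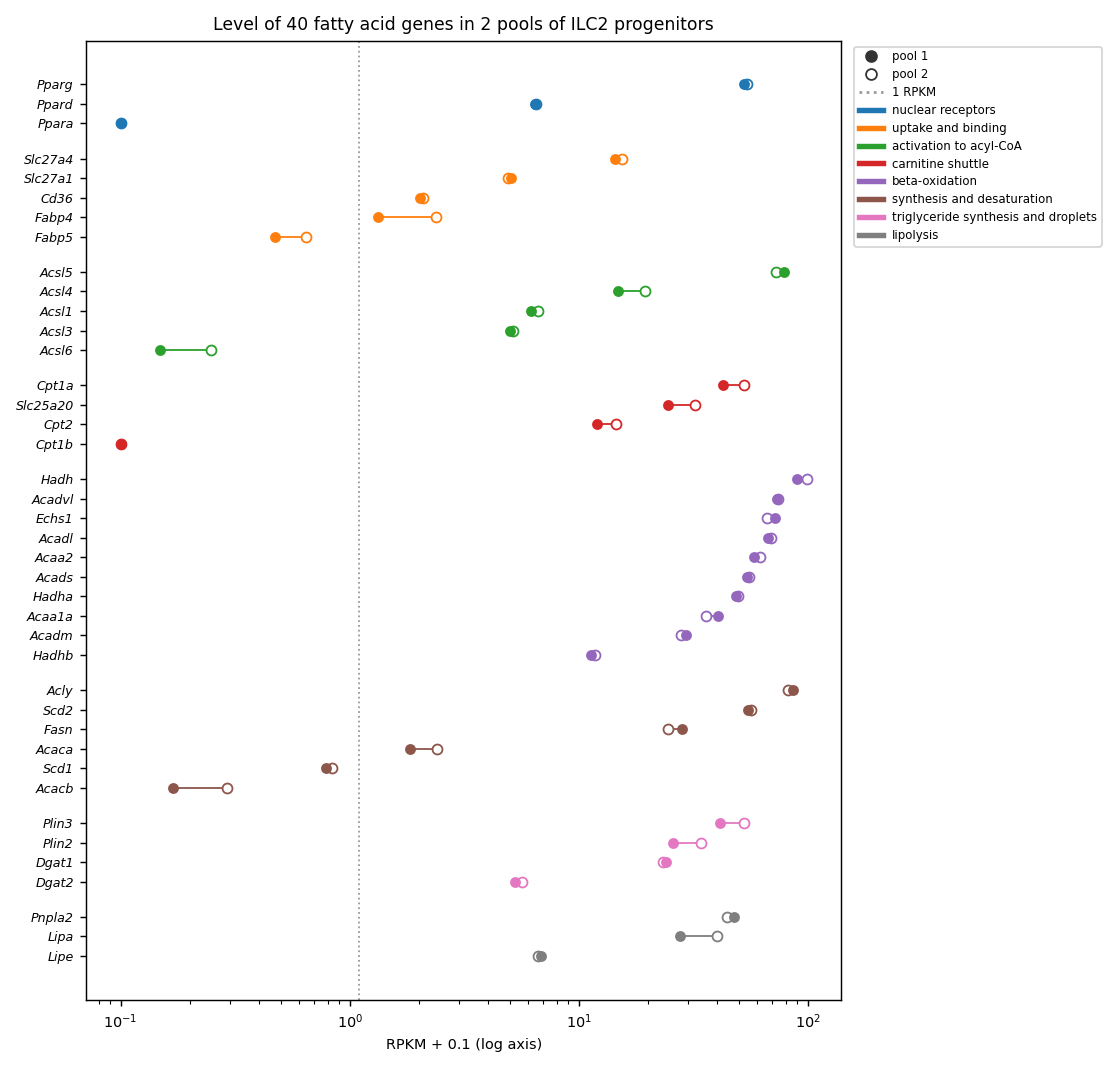
RPKM + 0.1 on a log axis for each of the 40 genes, filled circles for pool 1 and open circles for pool 2, coloured by role. Beta-oxidation genes cluster between 11.2 and 98.7 RPKM, while Ppara and Cpt1b are listed at 0 in both pools and are drawn at 0.1.

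Among the fatty acid receptors, Pparg stood far above its relatives. The gene (Entrez ID 19016, chr6:115360879-115490404, plus strand) had 52.7 RPKM in pool 1 and 54.3 in pool 2 (2115 and 2135 reads), a mean of 53.5 ± 1.08 (SD, n = 2) higher than 84.8% of all detected genes. Ppard, the broadly expressed member that responds to fatty acids, had 6.30 and 6.38 RPKM, so Pparg exceeded it 8.37-fold in pool 1 and 8.51-fold in pool 2. Ppara, which drives fatty acid oxidation in liver, was listed at 0 in both pools. Over its annotated 3496 exon bases, 3 reads would have been 0.0424 RPKM in pool 1 and 0.0433 in pool 2. Pparg thus made up 89.3% and 89.5% of the summed RPKM of the 3 receptors in pools 1 and 2.

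The promoters of 4 starts are shown because the levels of their genes anchor the receptor, shuttle and oxidation results. The promoter table drawn from RefSeq lists 3 starts for Pparg (chromosome 6) and 1 for Cpt1a, and the gene-level values do not tell which is used. The RefSeq extent of both genes begins upstream of these windows, so each has a further start that the table does not list and the windows lie inside the genes. The first and the last listed Pparg starts, which lie 60922 bases apart, differ in their letters, with 38 CpG in the 250 bases before the first and 2 before the last. The median over 32851 promoter windows is 6 CpG. Hadha and Hadhb, which encode the alpha and beta subunits of the mitochondrial trifunctional protein, run in opposite directions on chromosome 5 with 272 bases between their starts, and the Hadhb window lies in that gap. Sequences are from RefSeq (GRCm38.p6), the 250 bases before the listed start, 5′ to 3′, with CpG in capitals.
Pparg, first listed start, chr6:115360894-115361143, plus strand: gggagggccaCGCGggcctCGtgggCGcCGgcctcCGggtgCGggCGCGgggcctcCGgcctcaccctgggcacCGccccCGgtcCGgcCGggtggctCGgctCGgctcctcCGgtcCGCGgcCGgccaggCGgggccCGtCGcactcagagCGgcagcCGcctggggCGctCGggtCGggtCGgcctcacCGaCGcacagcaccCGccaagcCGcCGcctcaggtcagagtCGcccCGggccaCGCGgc
Pparg, last listed start, chr6:115421816-115422065, plus strand: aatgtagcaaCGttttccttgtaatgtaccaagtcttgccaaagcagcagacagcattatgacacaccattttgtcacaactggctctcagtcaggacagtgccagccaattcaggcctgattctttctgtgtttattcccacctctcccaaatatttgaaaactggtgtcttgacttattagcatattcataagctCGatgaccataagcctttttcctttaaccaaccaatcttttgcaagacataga
Hadhb, chr5:30155003-30155252, plus strand: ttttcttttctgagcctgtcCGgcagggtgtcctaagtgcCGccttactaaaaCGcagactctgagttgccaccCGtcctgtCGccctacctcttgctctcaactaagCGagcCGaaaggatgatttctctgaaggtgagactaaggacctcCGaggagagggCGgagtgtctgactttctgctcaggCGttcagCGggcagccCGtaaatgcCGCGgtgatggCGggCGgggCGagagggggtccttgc
Cpt1a, listed start, chr19:3323051-3323300, plus strand: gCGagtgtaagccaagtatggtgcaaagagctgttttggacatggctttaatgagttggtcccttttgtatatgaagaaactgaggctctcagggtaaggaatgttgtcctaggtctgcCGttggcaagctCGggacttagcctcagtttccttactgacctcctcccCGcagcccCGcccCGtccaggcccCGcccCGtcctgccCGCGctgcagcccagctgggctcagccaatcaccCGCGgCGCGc
The Hadhb and Cpt1a windows hold 17 and 14 CpG. Windows were found for 32 of the 40 genes, 40 windows in all, so some genes count more than once. Their median was 12 CpG, and 24 of them (60.0%) held 10 CpG or more, against 37.8% of all windows. The windows were not matched for expression, and 34 of the 40 members but 40.5% of all genes were detected. Letters were searched on both strands from 250 bases before the start to 50 after it. CCAAT was in 20 of 40 member windows and in 37.4% of all windows, and CACGTG in 3 of 40 (7.50%) and in 7.15%. The exact DR1 repeat, the element that PPAR and RXR dimers bind, was in 0 of 40 and in 0.0396% of all windows. The exact repeat is so rare that its lack in 40 windows shows nothing about PPAR elements in the members. TCAAGGTCA, an oestrogen-related receptor element, was in 1 of 40 and in 0.423% of all windows.

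Of the uptake and binding genes, Slc27a4 was near the middle of the detected genes and the others were lower. Slc27a4, a fatty acid transport protein with acyl-CoA synthetase activity, had 14.3 RPKM in pool 1 and 15.4 in pool 2, and its relative Slc27a1 had 4.97 and 4.80. Cd36, the scavenger receptor that takes up long-chain fatty acids in fat, muscle and macrophages, had 1.93 and 1.98 RPKM, and only 6.46% of detected genes were lower. Fabp4, the carrier of adipocytes and macrophages, had 1.23 and 2.28 RPKM from 16 and 29 reads. The ratio of pool 1 to pool 2 was 0.541 for Fabp4, with a counting interval (95%) of 0.275 to 1.03, so this difference was within counting error. Fabp5, the epidermal carrier, also known from T cells, had 0.372 and 0.541 RPKM from 7 and 10 reads.

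The level of Fabp5 stands beside a measure of shared sequence. Of the 938 words of 50 bases in its protein-coding transcripts, 21.1% also occur in another annotated gene, mostly in the processed pseudogene Gm6166. The authors' handling of reads that match several places is unknown here, so the values of such genes are uncertain. Of the 40 members, 33 share under 5% of their words and 22 share none. The 6 that share 20% or more are Cpt1b (80.4%), Hadhb (57.5%), Acaca (49.1%), Acaa1a (35.5%), Acadvl (23.5%) and Fabp5. Outside the set, Gapdh shares 58.4% of its words and had 5.30 RPKM in pool 1 and 4.83 in pool 2. Ppia shares 32.4% and had 23.7 and 19.1. The part of shared sequence in the levels of all these genes was not tested. Markers of macrophages, which also express Cd36 and Fabp4, summed over 8 genes to 19.1 RPKM in pool 1 and 19.7 in pool 2, with C1qa highest at 5.44 and 5.73, and Adgre1 (listed as Emr1) at 1.57 and 2.21. Of 8, 7 were detected. Of 6 markers of endothelium, another cell type with Cd36, Pecam1 alone was detected, at 21.2 and 26.5 RPKM, and the list summed to 21.4 and 26.9. Cdh5, Kdr, Emcn, Esam and Gpihbp1 were each at 0.127 RPKM or less in both pools. The part of macrophages and endothelium in the Cd36 and Fabp4 values was not tested.

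**Figure D2:**
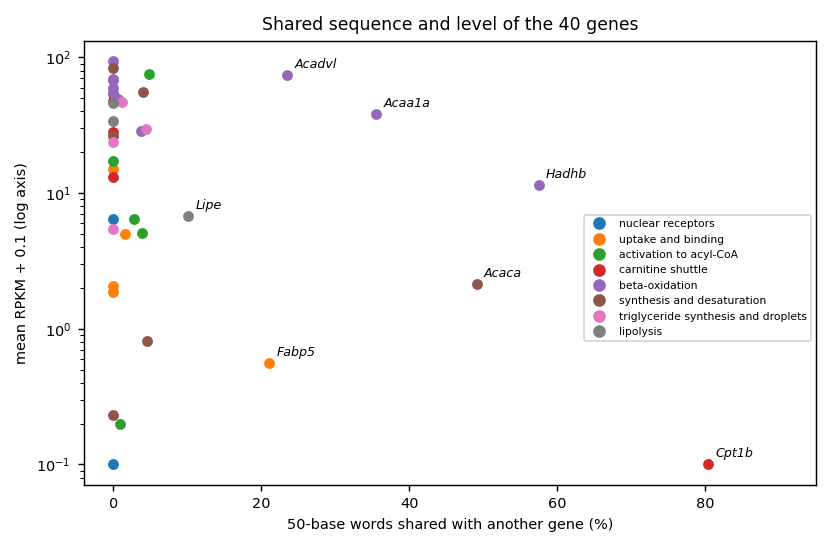
Mean RPKM + 0.1 of the 40 genes (log axis) against the share of their 50-base words found in another annotated gene (%), coloured by role. Most genes lie under 5%, while Cpt1b, Hadhb and Acaca lie at 80.4%, 57.5% and 49.1%.

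Long-chain acyl-CoA synthetases, which trap fatty acids in the cell as acyl-CoA, were led by Acsl5. Acsl5, found on mitochondria and endoplasmic reticulum, had 78.6 RPKM in pool 1 and 72.4 in pool 2, a mean of 75.5 ± 4.36 (SD, n = 2). Acsl4, which prefers arachidonic acid, followed at 14.7 and 19.4. Acsl1, the main form of fat and heart, had 6.05 and 6.54 RPKM, and Acsl3, a form of lipid droplets, 4.88 and 5.04. Acsl6, a form of brain and erythroid cells, was close to the counting floor with 6 reads in pool 1 and 18 in pool 2, or 0.0483 and 0.148 RPKM. The order of the 5 genes was the same in both pools, and Acsl5 held 75.4% and 70.0% of their summed RPKM in pools 1 and 2. The log2 ratio of Acsl1 to Acsl3, the closest neighbours, was 0.30 and 0.37.

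Of the 4 carnitine shuttle genes, 3 were detected. Cpt1a, which makes acylcarnitine at the outer mitochondrial membrane and is the regulated step of fatty acid oxidation, had 42.6 RPKM in pool 1 and 52.3 in pool 2, a mean of 47.4 ± 6.83 (SD, n = 2). Slc25a20, the carnitine-acylcarnitine carrier of the inner membrane, had 24.4 and 31.9, and Cpt2, which returns the chain to CoA in the matrix, 11.9 and 14.4. All 3 were lower in pool 1, with ratios of pool 1 to pool 2 of 0.815 for Cpt1a (95% counting interval 0.780 to 0.852), 0.766 for Slc25a20 (0.701 to 0.837) and 0.821 for Cpt2 (0.733 to 0.919). Those intervals cover counting error only. Of all detected genes, 57.3% were higher in pool 2 by any amount. A difference of 1.25-fold or more, which of the 3 only Slc25a20 reached, was seen in 26.1% in either direction. It was seen as higher in pool 2 in 17.5%.

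Cpt1b, the muscle form of the first enzyme, was listed at 0 in both pools. GENCODE M21 places a readthrough gene, Gm44502, over 81.4% of the exon bases of Cpt1b on the same strand, joining it to the neighbouring choline kinase gene Chkb on chromosome 15. The files list that readthrough gene under its older symbol BC090627 at 0, and Chkb itself at 0.103 and 0.131 RPKM. The part of this overlap in the zero was not tested, so the listing does not show that Cpt1b was silent.

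All 10 genes of beta-oxidation were detected, each at 11.2 RPKM or more. Their largest fold between the pools was 1.14 and their median fold 1.04, where the median over all detected genes was 1.13. This comparison was not matched for level. Hadh, which encodes the short-chain 3-hydroxyacyl-CoA dehydrogenase, was the highest of all 40 genes at 89.7 RPKM in pool 1 and 98.7 in pool 2, with a mean of 94.2 ± 6.36 (SD, n = 2) above 92.2% of detected genes. The acyl-CoA dehydrogenases, which take the first step for chains of different length, came in the same order in both pools. Acadvl, for very long chains, had 73.5 and 74.1 RPKM, Acadl, for long chains, 66.6 and 69.2, Acads, for short chains, 53.9 and 55.3, and Acadm, for medium chains, 29.2 and 27.9. The ratio of Acadvl to Acadl was small, at 1.104 and 1.07, and in pool 2 their counting intervals (95%) overlapped, with 71.6 to 76.7 RPKM for Acadvl and 66.5 to 71.9 for Acadl. The exons of Acadvl are overlapped over 42.9% of their bases by Dvl2 on the opposite strand, at 13.5 and 13.7 RPKM, and no source used here gives the strand setting of the counting.

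Echs1, the short-chain enoyl-CoA hydratase of the second step, had 72.0 RPKM in pool 1 and 66.1 in pool 2, and Acaa2, the thiolase of the last step, 57.9 and 61.9. Hadha, which carries the hydratase and dehydrogenase activities for long chains, had 48.6 and 49.4 RPKM. Hadhb, its partner with the thiolase activity, had 11.2 and 11.6. The subunits of this single complex, which share the gap shown above, therefore stood 4.34-fold and 4.25-fold apart in pools 1 and 2. Of the Hadhb words, 56.6% also occur in the processed pseudogene Gm13910, while Hadha shares 0.655% of its words with any gene. Acaa1a, a peroxisomal thiolase, had 40.5 and 35.7 RPKM and shares 26.7% of its words with its paralog Acaa1b, which was at 5.66 and 4.77, so reads may be divided between them.

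Synthesis genes ranged from the top of the set to the counting floor, with 4 of 6 detected. Acly, which makes cytosolic acetyl-CoA from citrate, had 86.0 RPKM in pool 1 and 81.3 in pool 2, the second highest mean of the 40 at 83.7 ± 3.32 (SD, n = 2). Fasn, the fatty acid synthase, had 28.1 and 24.4. Scd2, a stearoyl-CoA desaturase known from brain and lymphocytes in the mouse, had 54.4 and 56.5 RPKM, while the liver form Scd1 had 0.685 and 0.740, a difference of 79.5-fold and 76.4-fold. Acaca, the cytosolic acetyl-CoA carboxylase that commits carbon to synthesis, had 1.74 and 2.31 RPKM, or 317 and 413 reads. Of its words, 49.1% also occur in the processed pseudogene Gm5182. Acacb, the carboxylase whose product restrains Cpt1, had 0.0700 and 0.190 RPKM from 12 and 32 reads.

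Droplet and triglyceride genes were in the middle of the range. Dgat1, which completes triglyceride synthesis in the endoplasmic reticulum, had 23.8 RPKM in pool 1 and 23.2 in pool 2, and Dgat2, an unrelated enzyme for the same step, 5.16 and 5.55. Plin3, a coat protein that moves from the cytosol to new droplets, had 41.3 and 52.4, and Plin2, the droplet coat of cells other than adipocytes, 25.7 and 33.9. Dgat1 exceeded Dgat2 4.62-fold and 4.18-fold, and Plin3 exceeded Plin2 1.61-fold and 1.55-fold in pools 1 and 2. Among the lipases, Pnpla2, which starts triglyceride breakdown on droplets, had 47.5 and 44.1 RPKM. Lipa, the lysosomal acid lipase, had 27.4 and 39.8, a mean of 33.6 ± 8.76 (SD, n = 2), and Lipe, the hormone-sensitive lipase of adipocytes, 6.72 and 6.56. The exons of Lipe are overlapped over 15.6% of their bases by 4732471J01Rik on the opposite strand, and the strand setting of the counting is unknown.

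**Figure D3:**
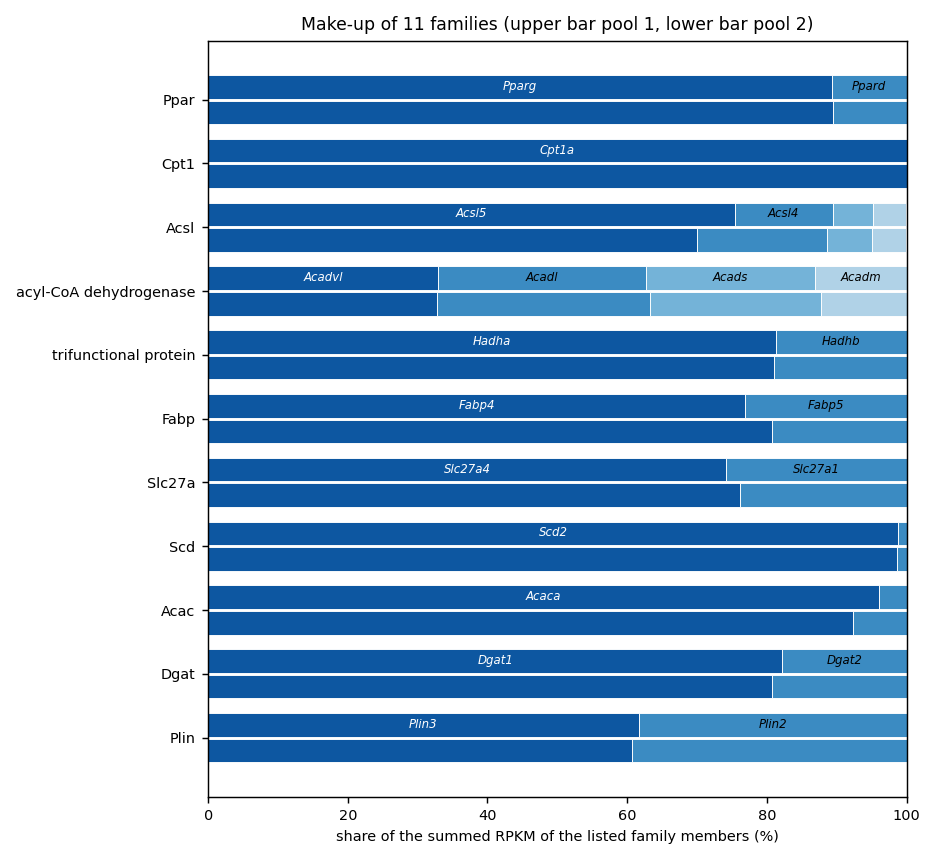
Share of the summed RPKM of each family (%) held by its listed members, with the upper bar of each pair for pool 1 and the lower for pool 2, members ordered by mean level from the left. Scd2 holds 98.8% of its family in pool 1 and 98.7% in pool 2, and Acadvl, the leading acyl-CoA dehydrogenase, 32.9% and 32.7%.

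The order of members within the families was the same in both pools. The 11 families gave 15 pairs of neighbouring members with reads, all in the same order in both pools, and 2 further pairs that end in a member listed at 0. Members were ordered by their mean over these same pools, so for pairs far apart the same order in both was all but given. Within the Acsl family, Acsl4 held 14.1% in pool 1 and 18.7% in pool 2, and Acsl6 0.0463% and 0.143%. Acacb held 3.87% of its family in pool 1 and 7.62% in pool 2. The ratio of pool 1 to pool 2 was 0.368 for Acacb (95% counting interval 0.173 to 0.734) and 0.327 for Acsl6 (0.106 to 0.860).

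The question of how stable the set was between 2 separate pools of mice was then asked. Of the 34 detected members, 1 was 1.5-fold or more apart, against 8.79% of all detected genes. That gene was Fabp4, lower in pool 1, with the few reads given above. Of all detected genes 2.71% were 1.5-fold higher in pool 1 and 6.08% in pool 2. At 2-fold 0 of 34 were apart, against 2.71% of all detected genes, 0.999% higher in pool 1 and 1.72% higher in pool 2. At 1.25-fold, a limit added after the data were seen, 7 of 34 were apart, against 26.1% of all detected genes. All 7 were lower in pool 1. Of all detected genes 8.61% passed this limit as higher in pool 1 and 17.5% as higher in pool 2. The median fold between the pools was 1.08 for the members and 1.13 for all detected genes. These comparisons were not matched for level, and the median log2 level was 4.86 for the detected members and 3.86 for all detected genes. Next to Fabp4, Lipa differed most, with a ratio of pool 1 to pool 2 of 0.689 (95% counting interval 0.646 to 0.734), followed by Acaca at 0.753 (0.648 to 0.874), Acsl4 at 0.757 (0.708 to 0.809), Plin2 at 0.758 (0.697 to 0.825), Slc25a20 at 0.766 and Plin3 at 0.787 (0.739 to 0.838).

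Among the members higher in pool 1 were Fasn, with a ratio of 1.15 (1.11 to 1.195), and Acaa1a, with 1.14 (1.05 to 1.23). In all, 10 detected members were higher in pool 1 and 24 in pool 2 with the deposited scaling, where 42.7% and 57.3% of all detected genes were. With the median ratio of all detected genes set to 1, 16 members were higher in pool 1 and 18 members in pool 2. With the deposited scaling the median log2 ratio of pool 1 to pool 2 was -0.05 for the members and -0.04 for all detected genes. The summed neutrophil, erythroid, eosinophil and ILC2 markers were also lower in pool 1, as given above, and the summed bone stroma markers were higher. Single markers went against their sum, 1 of 8 for neutrophils and 4 of 10 for ILC2. The part of these cell types in the values of Lipa, Plin2 and the other genes lower in pool 1 was not tested.

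**Figure D4:**
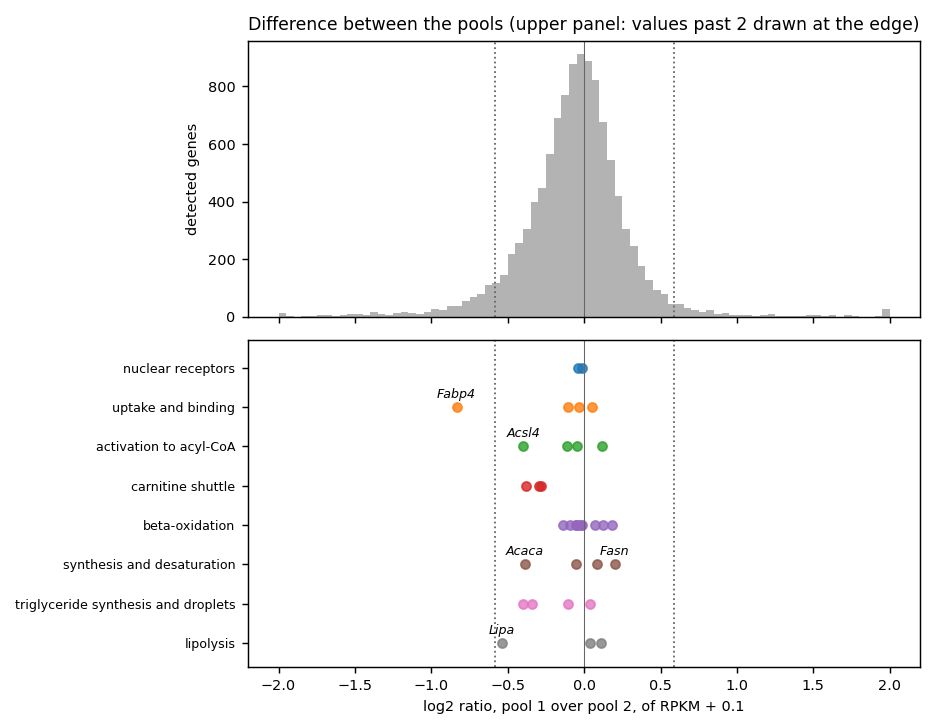
Upper panel, number of all 11013 detected genes by log2 ratio of pool 1 to pool 2 (RPKM + 0.1), values past 2 drawn at the edge. Lower panel, the 34 detected members by role, with dotted lines at 1.5-fold; Fabp4 at -0.83 is the member past a line and Lipa at -0.54 is next.

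Further genes of fatty acid metabolism, on 7 lists of 104 genes, gave the surroundings of the 40. Of these, 71 (68.3%) were detected, where 40.5% of all genes were. The auxiliary oxidation and electron transfer list was complete, with 12 of 12 detected, led by Etfb, a subunit of the electron transfer flavoprotein, at 139.7 RPKM in pool 1 and 138 in pool 2, Ech1 at 117 and 129.6, and Eci1 at 50.6 and 46.7. Of the peroxisomal list 11 of 13 were detected, with Hsd17b4 at 48.7 and 43.4, Crot, which makes carnitine esters of shortened chains, at 33.6 and 54.6, and Scp2 at 31.4 and 32.2. Elongation and desaturation genes reached the highest values. Elovl5, an elongase of polyunsaturated chains, had 215 and 279.5 RPKM, Tecr, the reductase of the elongation cycle, 149.9 and 137, and Elovl1 47.9 and 53.5, with 9 of 15 detected.

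Carnitine and acyl-CoA handling genes were detected in 11 of 14 cases, led by the thioesterase Acot7 with 85.1 RPKM in pool 1 and 91.9 in pool 2, Dbi, which encodes the acyl-CoA binding protein, at 52.5 and 50.6, and Acot13 at 40.9 and 46.6. Lipid uptake and binding was again the least expressed list, with 2 of 11 detected. The highest was Got2, a mitochondrial aminotransferase also described at the plasma membrane, at 33.4 and 28.8 RPKM. Lpl, lipoprotein lipase, was below 1 RPKM at 0.269 and 0.448. Droplet and glycerolipid genes were detected in 11 of 20 cases, with Hilpda, a droplet protein that restrains Pnpla2, at 67.3 and 34.7, Bscl2, which encodes seipin, at 51.7 and 48.7, and Agpat2 at 45.9 and 48.01. The adipocyte droplet genes Plin1, Plin4, Cidea and Cidec were listed at 0, and these and Lpl are named after their values were seen.

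Regulators were detected in 15 of 19 cases. Srebf2, the main activator of cholesterol synthesis, had 88.4 RPKM in pool 1 and 72.2 in pool 2, the LXR beta gene Nr1h2 56.3 and 64.9, and Rxrb, a partner of PPAR receptors, 45.9 and 45.5. The coactivator gene Ppargc1a, also named after its value was seen, was listed at 0, and its relative Ppargc1b had 2.76 and 1.503 RPKM. Of the 71 detected genes, 0 were 2-fold and 4 were 1.5-fold or more apart between the pools, against 2.71% and 8.79% of all detected genes. Among those 4, named after their values were seen, Hilpda and Ppargc1b were higher in pool 1 by log2 ratios of 0.95 and 0.84, and Crot was lower in pool 1 at -0.70.

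**Figure D5:**
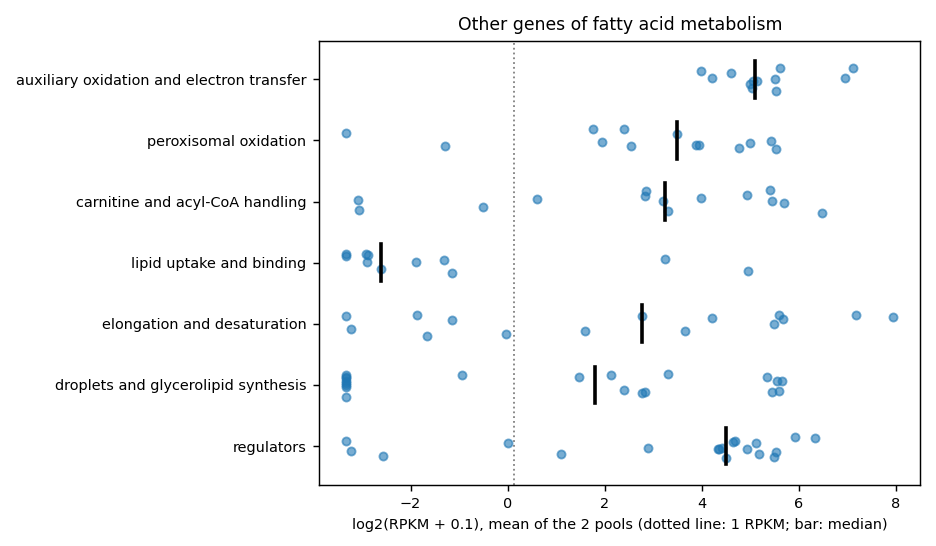
Mean log2(RPKM + 0.1) over the pools for 104 further genes on 7 lists, 1 point per gene, with a bar at each list's median and a dotted line at 1 RPKM. The uptake and binding list has its median at -2.61, and the oxidation and electron transfer list at 5.09.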

How the data were processed

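Per the labels, RNA of sorted cells was extracted with RNeasy Micro and 100 ng entered the TruSeq preparation. The authors deposited RPKM values for each library, a unit inferred from the values since the file headers do not name it. Tools named without roles in the submitters' processing notes are featureCounts, CASAVA 1.8.2 and edgeR (3.8.2 and 3.22.0), with the build mm10. The aligner is not given in the sources used here, nor are the strand setting and the handling of multiply matching reads.

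Python 3.11.15, pandas 2.3.3, numpy 2.4.6 and scipy 1.17.1 were used. Library totals were recovered as those that make gene lengths and reads whole. Of 500 genes drawn, 500 gave whole reads to the precision of the files. With a slightly higher pool 1 total, 5 did. A simple fraction of the totals also gives whole lengths, so this check does not settle their size. The size was set by annotated exon lengths, of which 2128 of 13429 gave whole reads. Where the length came out under 0.55 of the annotated one, reads were multiplied up. Reads are therefore estimates, used for exact counting intervals at the 95% level (Poisson or Clopper-Pearson), which cover counting error only. At this depth 3 reads was the floor. The recovery was tested on simulated data in which every gene had its annotated length, unlike in the deposited files. The simulation therefore does not check how the size of the totals was set there.

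Levels are log2(RPKM + 0.1), and ratios on that scale understate differences of low genes. Folds compare RPKM directly. Each pool is a single library, so no test was made between them. Shared words of 50 bases and exon overlaps came from GENCODE M21 (GRCm38), gene positions and promoters from RefSeq GRCm38.p6. Adgre1 was matched by ID to its older symbol Emr1. All 40 members are named, with the 3 highest genes of each further list any detected gene of them 2-fold apart and the members nearest to 1 RPKM. The values of 1 gene of the further lists, and 1 promoter element, are not reported here. The members, lists and tests were chosen with earlier results of these data known. The trifunctional protein pair was added to the families after the data were seen.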

Additional observations from a re-analysis of the deposited data

How the results depend on the processing

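The number of detected members was 34, and 29 to 36 with 0.5 or 5 RPKM, with 10 reads or on the TPM scale. It was 34 in each pool alone, where 11256 of all 27179 genes reached 1 RPKM in pool 1 and 11429 in pool 2. The share of all genes at the other limits was not counted. The median level of the members, 4.64 (log2), moved to 4.69 with a pseudocount of 1, 4.86 over detected members only, 5.70 on the TPM scale, which raises all values by 1.05 and 1.07 in pools 1 and 2, and 4.76 without the 6 members that share 20% or more of their words, an alternative added after seeing the data. In the single pools it was 4.58 to 4.60, since a median of averages need not lie between the pool medians. The 1 member apart between the pools became 0 at 2-fold and 7 at 1.25-fold, beside the shares of all detected genes given above. It became 3 with no filter on low values, where the share of all genes was not counted, so that count has no baseline. The median log2 ratio of -0.05 was -0.0653 on the TPM scale and -0.0052 with the median of all detected genes set to 1. The 15 family pairs kept their order with reads not divided by length, while 13 of 15 ratios moved by more than their SD over the pools, without changing direction. Ppara and Cpt1b, with no reads in either pool, are limited by the floor of 3 reads, and Fabp5, Fabp4, Acsl6 and Acacb rest on few reads. Leaving out a pool leaves no ratio between pools. No paired analysis was possible because the series has 1 group.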
